A study of Gallus gallus with 8 samples.

Results

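PHF5A knockout libraries were compared with libraries from cells that had received a scrambled guide, in GFP+ cells of chicken (Gallus gallus) trunk neural crest. The comparison was chosen by label: 2 PHF5A knockout libraries, 1 for each of 2 guides, and 2 control libraries, which together are 4 of the 8 libraries of the series. The other 4 libraries are knockouts of DLC1 (2) and SF3B1 (2), again with 1 library per guide, and they entered the fit to give an estimate of the spread. All cells were primary neural crest cells, given Cas9 and a guide RNA per the series' design text. The sources used here do not say what drives GFP or how far editing went. A knockout group holds 1 library per guide, so guide and library differences cannot be told apart within it, and the labels do not say whether the control libraries came from separate cultures. The p-values therefore measure only the spread between these libraries.

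PHF5A is a small zinc-binding subunit of SF3b. This protein complex belongs to the U2 snRNP of the spliceosome and binds introns around the branch point. PHF5A sits beside SF3B1 there, and both contribute to the pocket that holds the branch point adenosine. Introns are removed in the course of transcription, and transcripts whose introns stay in are often held in the nucleus or degraded. Trunk neural crest cells leave the dorsal neural tube and give rise to sensory and sympathetic neurons, glia and melanocytes. In bulk RNA of this kind, fewer cells of a type and less RNA per cell cannot be told apart.

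The deposited table gives each feature by its Ensembl ID with no gene name, and the reference table at hand matched 0 of the 30862 IDs. The level of PHF5A itself, which would check the labels, and the neural crest, neuronal and glial markers that would check the tissue were therefore not analysed here. Genes are described by their genomic span, read level and chromosome (GRCg6a, as deposited), and a few by ID. Each feature was counted over its whole span, introns included. All 5371 features that lie wholly inside another feature held 0 reads in all 8 libraries, including the 2995 that lie only inside features of the opposite strand. A 0 at such a feature is therefore no measurement of its RNA. The count of any other gene can hold spliced and unspliced RNA alike, and these cannot be told apart in this table.

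The PHF5A libraries held 34371525 counts (guide 1) and 33864758 counts (guide 2), against 19163114 and 18226753 in the controls. Mitochondrial transcripts took 8.01% and 19.6% of the counts in the PHF5A libraries, against 25.9% and 21.4% in the controls. The W chromosome took 0.0369% and 0.0973% in the PHF5A libraries, against 0.146% and 0.00219% in the controls, so the controls stood further apart there than the guides did. Chromosomes MT, Z and W were left out of the library totals and of the scaling, though their genes were tested. What remained was 30433768 and 26318348 counts in the PHF5A libraries, against 13781374 and 13759471 in the controls. A floor of 3 counts stood at 0.0923 and 0.109 CPM (scaled counts, comparable between libraries of unequal depth) in the PHF5A libraries and at 0.248 and 0.256 CPM in the controls. The 500 genes with most reads took 37% and 38.8% of these counts in the PHF5A libraries, below the 44.7% and 47% of the controls.

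Knockout of PHF5A was followed by differences at 4863 of 15619 genes tested, of which 2583 rose and 2280 fell (edgeR's quasi-likelihood test, adjusted p under 0.05). This is 31.1% of the genes tested, 16.5% rising and 14.6% falling. At all 4863, both guide libraries lay on the same side of both controls, so this condition removed no gene. With 2 libraries a side a call largely requires such a separation, which is thus no separate result on the agreement of the guides. Without any test, 10512 genes met that condition (67.3%), 5578 with both guides above both controls (35.7%) and 4934 with both below (31.6%). The genes that rose changed by a median of 1.19 on the log2 scale and 1675 of them by at least 2-fold, 374 by at least 4-fold and 97 by at least 8-fold. The genes that fell changed by a median of 0.966 on the log2 scale, 1059 by at least 2-fold, 129 by at least 4-fold and 29 by at least 8-fold. The controls differed from each other by over 2-fold at 47 of the rising and 49 of the falling genes, and at 458 of all genes tested.

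The number of calls depended most on the controls and the guide 1 library. Leaving out control 1 gave 2823 calls, leaving out control 2 gave 2276 and leaving out guide 1 gave 3101, in each case with the remaining library assumed to vary like those of the other groups. Of these calls 2622, 2160 and 2825 were also among the 4863. Leaving out guide 2 gave 4339 calls, 3678 of them among the 4863. None of the shared genes had the opposite direction.

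Each guide was next set against both controls by itself. Guide 1 alone gave 2272 genes that rose and 2065 that fell, and guide 2 alone gave 1830 that rose and 1247 that fell. These are 14.5% and 13.2% of the genes tested for guide 1, and 11.7% and 7.98% for guide 2. A core of 2227 genes was called for each guide alone in the same direction (14.3% of genes tested), 1268 rising (8.12%) and 959 falling (6.14%). No gene was called for each guide alone in opposite directions. All 2227 were among the 4863, and 1033 of the rising and 677 of the falling ones changed by at least 2-fold. Both guides were set against the same 2 controls here, so these lists are not independent of each other.

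To keep the controls apart, guide 1 was also set against control 1 and guide 2 against control 2. Of 15619 genes, 12638 then had the same sign in both ratios (80.9%). At 1697 genes both ratios passed 2-fold: 1072 up in both, 603 down in both and 22 in opposite directions. Of those 22 genes, 18 lie on the W chromosome, where control 2 held almost no reads. With the controls exchanged the same sign was found at 11400 genes (73%), and both ratios passed 2-fold at 763 genes upward, 437 downward and 25 in opposite directions, 6 of these on W.

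**Figure D1:**
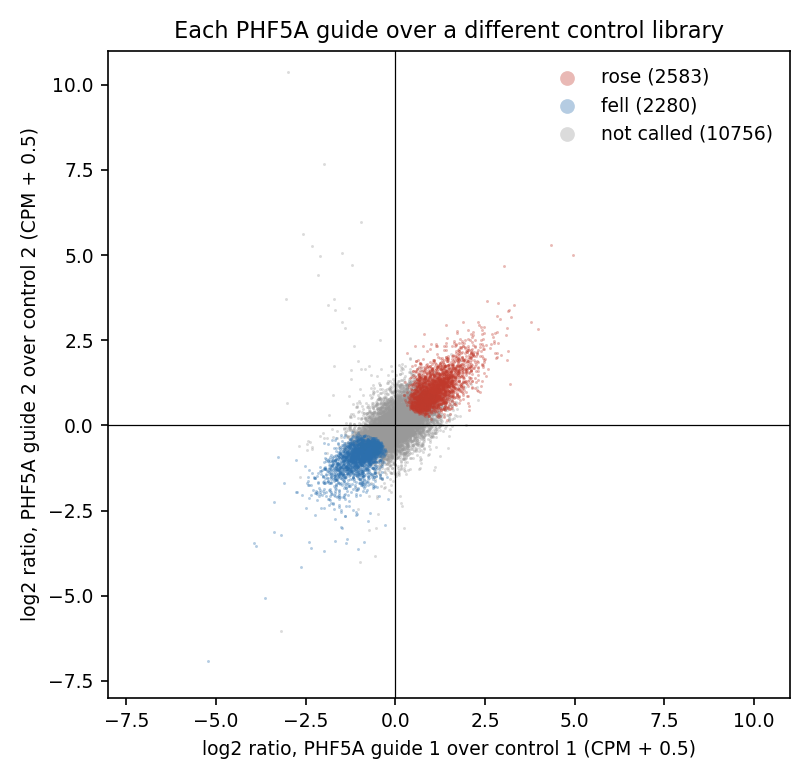
Log2 ratio of CPM + 0.5 for guide 1 over control 1 (x axis) and guide 2 over control 2 (y axis), 1 point per tested gene. Genes that rose (2583) and fell (2280) in PHF5A knockout are coloured, and the 10756 others are grey. The called genes lie along the diagonal, and most of the 22 genes past 2-fold in opposite directions, seen at upper left, are on chromosome W.

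The guide 1 library stood further from the controls than the guide 2 library did. Among genes that rose, the median log2 ratio was 1.21 for guide 1 and 1.12 for guide 2, and guide 1 was the farther at 1483 of 2583. Among genes that fell, it was -1.08 for guide 1 and -0.871 for guide 2, and guide 1 was the farther at 1604 of 2280. Over all genes tested guide 1 was the farther at 8689 of 15619 (55.6%). The share of the rising genes (57.4%) lay near this, and that of the falling genes (70.4%) above it. The difference between the guides was called at 0 genes by edgeR (smallest adjusted p = 0.557), with 1372 genes (8.78%) at an unadjusted p under 0.05. With no filter on low counts 138 genes were called. The 4 genes that follow, 2 in each direction, had the smallest unadjusted p among genes averaging at least 5 CPM; their adjusted p is tied with that of many other genes, and edgeR called none of these differences. ENSGALG00000009758 (chromosome 4) had 10 CPM with guide 1 and 2.03 CPM with guide 2, against 3.23 and 2.65 CPM in the controls, so guide 2 lay below both controls and guide 1 above them. ENSGALG00000035104 (chromosome 13) had 165 CPM with guide 1 and 402 CPM with guide 2, against 433 and 456 CPM in the controls. ENSGALG00000017405 (chromosome Z) had 118 and 46.1 CPM with guides 1 and 2, against 96.4 and 124 CPM in the controls. ENSGALG00000064129 (chromosome 8) had 6.59 and 21.2 CPM with guides 1 and 2, against 18.7 and 23 CPM in the controls. Against the controls, guide 1 was the library that stood apart at ENSGALG00000035104 and ENSGALG00000064129, and guide 2 at ENSGALG00000017405. At ENSGALG00000035104 the DLC1 libraries had 179 and 136 CPM and the SF3B1 libraries 149 and 178 CPM. At ENSGALG00000064129 they had 10.1 and 7.82 CPM (DLC1) and 10.6 and 9.25 CPM (SF3B1). The other knockouts thus lay nearer guide 1 at these 2 genes, where guide 2 lay nearer the controls. At ENSGALG00000017405 the DLC1 libraries had 181 and 153 CPM and the SF3B1 libraries 73.4 and 58.5 CPM.

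The strongest separations between the knockout and the controls were found by the smallest of the 4 guide-to-control ratios of each gene. ENSGALG00000048209 (chromosome 19, 195297 to 199262, minus strand) had 22.9 and 29.2 CPM in the PHF5A libraries, against 0.248 and 0.427 CPM in the controls, which rests on 3 and 5 control reads. It averaged 26 ± 4.48 CPM in PHF5A knockout and 0.338 ± 0.126 CPM in controls (SD, n = 2 each; log2 fold change 6.25, SE 0.354, adjusted p = 7.37e-05 by edgeR). ENSGALG00000030129 (minus strand of scaffold KZ626834.1, 244710 to 298175) had 9.63 and 19.1 CPM in the PHF5A libraries, from 313 and 528 reads, and 0 reads in both controls. Its pooled PHF5A reads were at least 111-fold higher, taking 3 counts over both controls as the floor (adjusted p = 0.00154, edgeR). With 0 control reads this gene could pass the filter on low counts only through the knockout libraries. Its direction was thus fixed, and its call is no separate result. In both genes every PHF5A library lay above every control library, which the choice by separation required. The DLC1 and SF3B1 libraries, shown in the plot of named genes, also lay above every control library.

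Among the genes that fell, ENSGALG00000056015 (chromosome 16, 2781457 to 2794978, minus strand) had 1.82 and 2.57 CPM in the PHF5A libraries, against 35.2 and 33.1 CPM in the controls. It averaged 2.19 ± 0.533 CPM in PHF5A knockout and 34.2 ± 1.47 CPM in controls (SD, n = 2 each; log2 fold change -3.96, SE 0.269, adjusted p = 0.000226 by edgeR). ENSGALG00000030994 (chromosome 25, 2622590 to 2624230, plus strand) had 0.769 and 1.19 CPM in the PHF5A libraries, against 18.1 and 19.2 CPM in the controls. It averaged 0.982 ± 0.301 CPM in PHF5A knockout and 18.6 ± 0.815 CPM in controls (SD, n = 2 each; log2 fold change -4.25, SE 0.339, adjusted p = 0.000444 by edgeR). The groups did not overlap at either gene, which the choice by separation required. ENSGALG00000030129 and ENSGALG00000030994 overlap features on both strands and ENSGALG00000056015 a feature on the opposite strand, so their counts may come from only a part of their span. All 4 genes kept their calls against control in all 16 alternatives, which include leaving out each of the 4 libraries. The genes were chosen as called for each guide alone, so keeping the call without a guide library largely follows from the choice.

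**Figure D2:**
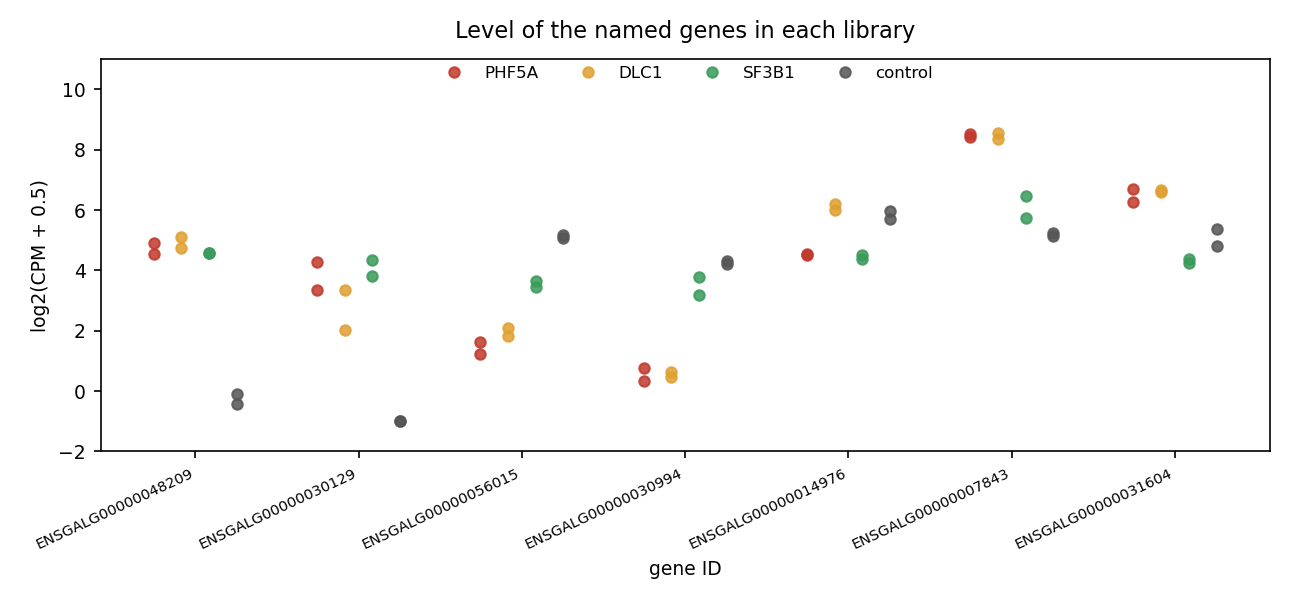
Log2 of CPM + 0.5 (y axis) for the genes named in the comparisons with control and with the other knockouts, 1 point per library, coloured by group with 2 libraries each. The 4 genes at left separate PHF5A knockout from control, ENSGALG00000014976 separates PHF5A from DLC1 knockout, and the 2 genes at right separate PHF5A from SF3B1 knockout.

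The direction of change followed the genomic span of the gene, in both guides. Outside MT, Z and W, 3287 tested genes span 30 to 100 kb. Of these 954 rose (29%) and 174 fell (5.29%), and their median log2 fold change was 0.385. The 4149 genes that span 3 to 10 kb went the other way, with 1022 that fell (24.6%), 289 that rose (6.97%) and a median of -0.266. The shorter 1325 genes, at 1 to 3 kb, held 357 falling and 105 rising genes around a median of -0.435. The turn lay between 10 and 30 kb, where 697 of 4561 genes rose and 571 fell. The core called for each guide alone had the same order, with 507 rising and 71 falling genes at 30 to 100 kb and 123 rising and 455 falling genes at 3 to 10 kb. These shares are set against 16.5% rising and 15% falling over the 14792 genes outside MT, Z and W. The median span was 35 kb for the genes that rose, 6.97 kb for those that fell and 15.7 kb for all genes tested. The pattern was not particular to PHF5A knockout. Against the same controls, genes of 30 to 100 kb had medians of 0.283 in DLC1 and 0.188 in SF3B1 knockout. Those of 3 to 10 kb had medians of -0.231 and -0.188, and those over 300 kb had 0.627 and -0.141.

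The difference between the median of genes of 30 to 100 kb and that of genes of up to 3 kb was 0.824 on the log2 scale. It was 1.06 for guide 1 and 0.561 for guide 2. Guide 1 is also the library with the lower mitochondrial share, and the part of that share in the span difference was not tested. The controls differed little from their own mean, by 0.0628 at 1 to 3 kb, 0.0175 at 3 to 10 kb and 0.0277 at 30 to 100 kb. At spans over 300 kb the guides stood close together, at 0.462 for guide 1 and 0.439 for guide 2. With no filter on low counts the difference was 0.375. Library size as the only scaling moved the median of all genes to 0.354, against 0.0614 with the scaling used here, and the medians of genes of 30 to 100 kb and of 1 to 3 kb, relative to all genes, were then 0.324 and -0.499, against 0.323 and -0.497. Under that scaling 78.4% of calls rose, against 53.1%.

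**Figure D3:**
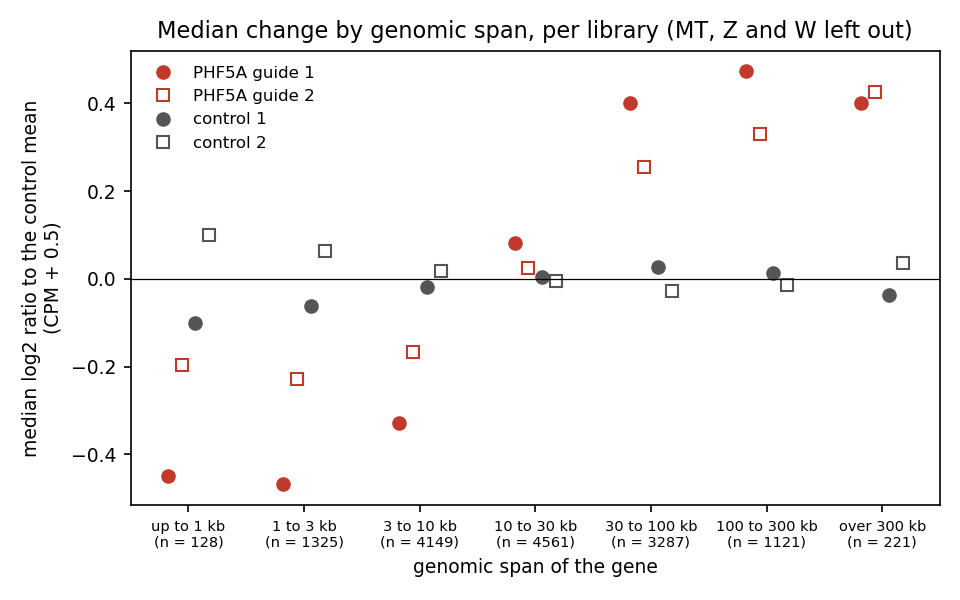
Median log2 ratio to the mean of the controls (y axis, CPM + 0.5) of genes grouped by genomic span (x axis), for each PHF5A and control library, with MT, Z and W left out. Both PHF5A libraries lie below 0 up to 10 kb and above 0 from 30 kb, and the controls stay within 0.1 of 0.

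Read level divided the genes as well. CPM is not scaled by length here, because the length of a feature is its whole span. Of the 686 genes that averaged over 256 CPM across the 8 libraries, 274 fell (39.9%) and 35 rose (5.1%), and the median log2 fold change was -0.419, -0.41 for guide 1 and -0.444 for guide 2. Between 64 and 256 CPM, 717 of 3011 genes fell and 427 rose (median -0.118). Between 16 and 64 CPM more genes rose (950 of 4310) than fell (686). Of the 2020 genes under 1 CPM 172 rose and 81 fell, around a median of 0.356. A gene could pass the filter on low counts through 2 of the 8 libraries, most of which are knockouts. Genes near that filter could thus enter through knockout libraries alone. The upward medians at low levels may follow in part from this selection, which was not tested. Relative to the median of all genes, genes over 256 CPM stood at -0.48, -0.461 for guide 1 alone and -0.475 for guide 2 alone. This difference was nearly the same in both guides, unlike that of span. With library size as the only scaling it was -0.482, but the nearly equal shift of all genes left it little room to move. Genes of 64 to 256 CPM then had a median of 0.173, below that of all genes. In the other knockouts, set against the same controls, genes over 256 CPM had medians of -0.28 (DLC1) and -0.444 (SF3B1).

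In broad groups (up to 10, 10 to 30 and over 30 kb; under 4, 4 to 64 and over 64 CPM), medians by span and level each kept their order within the other. In finer groups the order of level did not hold over 300 kb, with medians of 0.211 under 1 CPM and 0.554 at 16 to 64 CPM. It also broke at 30 to 100 kb (0.503 at 1 to 4 CPM, 0.557 at 4 to 16 CPM). At 100 to 300 kb it broke as well (0.548 under 1 CPM, 0.598 at 1 to 4 CPM). The order of span broke under 1 CPM, with 0.37 up to 1 kb, 0.215 at 1 to 3 kb and 0.211 over 300 kb. Among long genes it also broke at 1 to 4 CPM (0.598 at 100 to 300 kb, 0.525 over 300 kb). At 4 to 16 CPM the medians were 0.557 at 30 to 100 kb, 0.533 at 100 to 300 kb and 0.521 over 300 kb. At 16 to 64 CPM they were 0.459 at 30 to 100 kb and 0.42 at 100 to 300 kb. Among genes over 64 CPM, 617 of 1259 with spans up to 10 kb fell (49%) and 42 rose, while of 1070 with spans over 30 kb 275 rose (25.7%) and 81 fell. Among genes of 4 to 64 CPM, 638 of 2369 with short spans fell and 168 rose, while 914 of 2426 with long spans rose (37.7%) and 113 fell. Under 4 CPM the short genes no longer fell on balance: 194 of 1974 rose and 159 fell, with a median of 0.0997, where the guides had opposite signs (-0.0694 for guide 1 and 0.196 for guide 2). Long genes under 4 CPM had a median of 0.538. The limit from the filter on low counts, given above, holds for the groups under 4 CPM as well. Among groups of at least 20 genes, the lowest medians were those of short genes with many reads: 103 of 166 genes of 1 to 3 kb at 64 to 256 CPM fell (62%), with a median of -0.872, and 38 of 57 such genes over 256 CPM fell (66.7%), with a median of -0.951. The precision of a call also grows with the number of reads, so the shares called are not comparable between levels in the way the medians are.

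**Figure D4:**
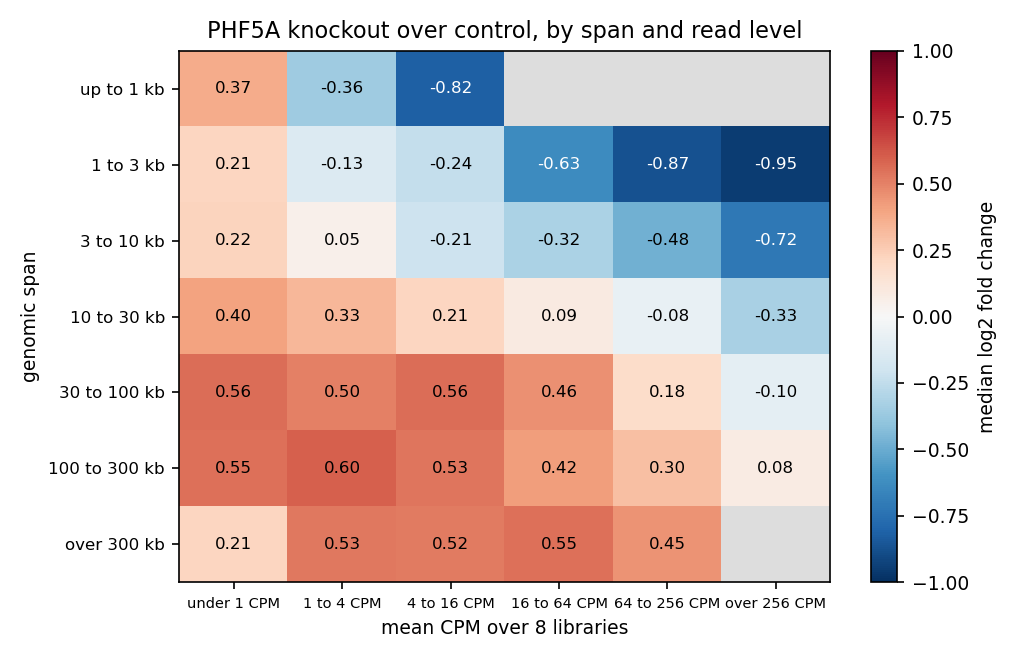
Median log2 fold change of PHF5A knockout over control by genomic span (rows) and mean CPM over 8 libraries (columns), outside MT, Z and W. Cells with under 20 genes are grey. Medians fall to the right in most rows, and from 4 CPM upward they are lower in the rows up to 10 kb than in those over 30 kb. They range from -0.951 for genes of 1 to 3 kb over 256 CPM to 0.598 for genes of 100 to 300 kb at 1 to 4 CPM.

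By chromosome, more genes rose than fell on each of the 10 large chromosomes (1 to 10), with 1614 rising (17.5%) and 1165 falling (12.7%) of 9203. On the smaller chromosomes 11 to 33, 819 rose (14.9%) and 1033 fell (18.8%) of 5482. Chromosome 25 stood lowest of the numbered chromosomes, with 57 of 192 genes that fell (29.7%) and 15 that rose, and a median of -0.393, -0.601 for guide 1 and -0.212 for guide 2. Chromosome 27 followed with 68 of 265 that fell and 37 that rose (median -0.26), then chromosome 30 with 27 of 121 and 15 (median -0.255) and chromosome 23 with 59 of 251 and 30 (median -0.216). Both guides had negative medians on these 4 chromosomes, as did DLC1 and SF3B1 knockout against the same controls (chromosome 25: -0.322 and -0.158). Scaled by library size alone, chromosomes 23, 27 and 30 had medians of 0.0748, 0.0312 and 0.0392, and that of chromosome 25 was -0.101. All 4 stayed below the median of all genes, which the nearly equal shift of all genes could hardly change. These chromosomes also carry short genes: the median span was 6.24 kb on chromosome 25 and 7.21 kb on chromosome 27, against 20.6 kb on chromosomes 1 to 10. Other chromosomes with short genes did not stand as low with the guides pooled. Medians were 0.139 on chromosome 16 (span 5.98 kb) and 0.114 on chromosome 31 (7.41 kb). They were -0.12 on chromosome 32 (5.29 kb) and -0.0587 on chromosome 33 (6.14 kb). The guides had opposite signs on each: -0.105 (guide 1) and 0.342 (guide 2) on 16, and -0.132 and 0.252 on 31. On 32 they had -0.302 and 0.0297, and on 33 -0.29 and 0.0947. With guide 1, chromosomes 32 and 33 thus lay near chromosome 23 (-0.287). Median read level was 5.82 CPM on 16 and 7.76 CPM on 31, against 31.5 CPM on 32, 35.4 CPM on 33 and 26.3 CPM on 25. The parts of span and read level in the chromosome medians were not tested.

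Within groups of equal span the difference between large and small chromosomes changed sign. Genes of 1 to 3 kb had a median of -0.573 on the small and -0.298 on the large chromosomes, and 32.5% and 22% of them fell. Genes of 30 to 100 kb had a median of 0.484 on the small and 0.355 on the large chromosomes, and 35.4% and 26.9% of them rose. Between 10 and 30 kb the medians were 0.0725 on the small and 0.0727 on the large chromosomes. The small chromosomes thus held the more extreme medians at both ends, in both guides, and read level was not matched in this comparison.

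The chromosomes left out of the scaling were less uniform. Of 752 genes on Z, 138 rose (18.4%) and 59 fell (7.85%), with a median of 0.195, 0.284 for guide 1 and 0.0857 for guide 2, while the controls lay 0.206 to either side of their own mean. On W, 0 of 38 genes rose and 1 fell, with medians of -0.554 for guide 1 and 0.478 for guide 2, and the controls lay 1.09 to either side of their mean. Of 37 mitochondrial features 4 fell and 0 rose, with a median of -0.933, -1.92 for guide 1 and -0.421 for guide 2. The PHF5A guides' medians lay further apart on MT and W than on any numbered chromosome, and on Z they did not. In DLC1 and SF3B1 knockout, against the same controls, the medians were -1.3 and -1.37 on MT. They were 0.0382 and -0.294 on Z, and 0.477 and 1.17 on W.

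**Figure D5:**
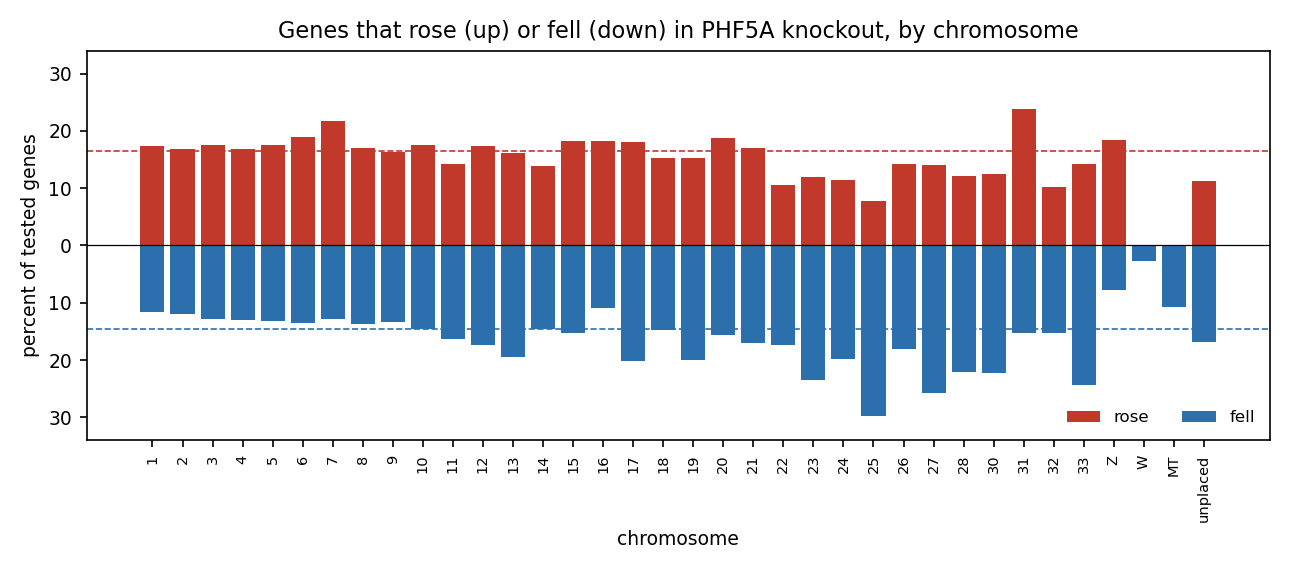
Percent of tested genes on each chromosome that rose (bars upward) or fell (bars downward) in PHF5A knockout. The dashed lines mark 16.5% rising and 14.6% falling over all genes tested, and chromosome 25 has the deepest falling bar at 29.7%.

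Genes that overlap no other feature (10430 tested) rose in 17.1% and fell in 13.9% of cases, close to the shares over all genes tested. Those overlapped on the opposite strand only (3650) rose in 14.5% and fell in 16.3% of cases. Of the 4863 called genes, 1629 (33.5%) had an adjacent tested gene called in the same direction. A rising neighbour stood beside 32.2% of rising genes and 29.7% of all genes tested, and a falling neighbour beside 34.9% of falling genes and 26.5% of all genes tested. The share of rising genes thus lay near that over all genes, and the share of falling genes lay above it. In all, 13 runs of 5 or more such neighbours were found, 8 rising and 5 falling. The 4 runs of 6 or more were singled out after their values were seen. On chromosome 26 (773859 to 869174) 8 neighbouring genes fell, with log2 fold changes between -7.31 and -1.23. Their summed level was 51.2 and 72 CPM in the PHF5A libraries, against 179 and 287 CPM in the controls. On chromosome 27 (7388426 to 7462715) 6 neighbouring genes fell, with a summed level of 301 and 438 CPM in the PHF5A libraries, against 701 and 813 CPM in the controls, and 1 gene held 90.4% of the reads. Neither run overlaps another feature. On chromosome 26, 1 gene held 54% of the reads and 3 of the 8 genes were in the core called for each guide alone. These 2 runs were low in the other knockouts too, against the same controls. On chromosome 26 the median log2 fold change was -1.75 in PHF5A, -1.38 in DLC1 and -1.51 in SF3B1 knockout. For the 6 genes on chromosome 27 it was -1.43, -1.04 and -1.07.

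On chromosome 33 (7601086 to 7638408) 7 neighbouring genes with a median span of 2.77 kb rose, with log2 fold changes between 1.18 and 3.76. They summed to 193 and 368 CPM in the PHF5A libraries, against 83.2 and 101 CPM in the controls. On chromosome 27 (6173057 to 6280215) 7 neighbouring genes rose, with a summed level of 2784 and 3694 CPM in the PHF5A libraries, against 1799 and 1835 CPM in the controls, and 3 of the 7 overlap another feature. In each of the 4 runs both PHF5A libraries lay on one side of both controls. That follows from the choice, since every called gene had both guides on one side of both controls. The rise in the 2 rising runs was the greater with guide 2, unlike the general pattern. On chromosome 33 the median log2 fold change was 1.72 in PHF5A, 0.557 in DLC1 and 0.357 in SF3B1 knockout. For the rising run on chromosome 27 it was 0.764, 0.168 and 0.556. Fewer genes of a run were called with a library left out, except that both rising runs kept all 7 calls without guide 1. Of the 8 genes on chromosome 26, 7 were called without control 1 and 4 without each of control 2, guide 1 and guide 2. Of the 7 on chromosome 33, 4 were called without control 1, 6 without control 2, 7 without guide 1 and 4 without guide 2. Of the 6 falling genes on chromosome 27, 4, 2, 2 and 4 were called in that order, and of the 7 rising ones there 4, 3, 7 and 2.

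Some features had reads in both PHF5A libraries and 0 in both controls. At least 3 reads with each guide and none in the controls were found at 234 features, with a median of 5 reads per PHF5A library. The reverse, 0 with both guides and at least 3 reads in each control, was found at 6. The PHF5A libraries were deeper, and after every library was thinned to the total of the shallowest the counts were 60 and 11. Of the 234 features 24 passed the filter on low counts, and 22 of these were called as rising. With 0 reads in the controls they could pass only through the knockout libraries. Their direction was set by the selection, so these calls are no separate result.

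PHF5A knockout was also set directly against the other knockouts, without the controls. Against DLC1 knockout, 1 gene differed (0.0064% of genes tested; edgeR, with 1924 at an unadjusted p under 0.05). ENSGALG00000014976 (chromosome 2, 102635988 to 102655539, plus strand; named because the count is 1) had 22.5 and 22.7 CPM in the PHF5A libraries, against 63.9 and 72.7 CPM in the DLC1 libraries. It had 20.5 and 22.3 CPM in the SF3B1 libraries and 51.8 and 61.9 CPM in the controls. It thus lay low in both SF3b knockouts and not in DLC1 knockout (log2 fold change against DLC1 -1.6, SE 0.175, adjusted p = 0.0463 by edgeR). Its call was lost without the guide 2 library (adjusted p = 0.192) and without either DLC1 library. The count was 61 without the guide 1 library, 2 without either control, 278 with DESeq2 and 462 with no filter, so a count of 1 does not show that the knockouts act alike.

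Against SF3B1 knockout, 180 genes differed, 130 higher (0.832%) and 50 lower (0.32%) in PHF5A knockout. At an unadjusted p under 0.05 (edgeR) there were 2747 genes (17.6%), against 1924 (12.3%) in the comparison with DLC1 knockout. The SF3B1 libraries held 19565587 and 18545207 counts, fewer than the PHF5A libraries, while the DLC1 libraries held 34460321 and 34698250. With every library thinned to the shallowest, 162 genes differed from SF3B1 knockout and 1 from DLC1 knockout. Whether libraries of like depth were also processed together is not given by the labels and was not tested. Of the 130, 109 had risen in PHF5A knockout against control, and of the 50, 45 had fallen. Their median log2 fold change against control was 1.09 in PHF5A and -0.203 in SF3B1 knockout for the 130, and -1.61 in PHF5A and -0.248 in SF3B1 knockout for the 50. The genes were chosen on the same PHF5A and SF3B1 libraries. These counts and medians thus follow in part from the choice and are no separate result. Of the 130 genes 40 span over 100 kb (30.8%), against 9.32% of all genes tested, and 0 of the 50 do. Of the 130, 17 lie on Z, as do 752 of the 15619 genes tested. The controls differed on Z and the 2 knockouts were compared without them, but the knockouts themselves differed in W share. W took 0.235% and 0.159% of the counts in the SF3B1 libraries, against 0.0369% and 0.0973% in the PHF5A libraries. Genes over 300 kb had a median log2 fold change against control of 0.473 in PHF5A knockout and of -0.141 in SF3B1 knockout, and 10 of the 221 were higher in PHF5A knockout. The count was 34 without the guide 1 and 3 without the guide 2 library of SF3B1, 677 with DESeq2 and 980 without the filter. With each library's W share added to the model it was 0.

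The genes named for PHF5A against SF3B1, 2 in each direction, were chosen after the values were seen, by unadjusted p among genes tied at the smallest adjusted p. ENSGALG00000007843 (chromosome 4, 12808808 to 12885753, minus strand) had 344 and 368 CPM in the PHF5A libraries, against 86.8 and 53 CPM in the SF3B1 libraries, with 378 and 325 CPM in the DLC1 libraries and 37.4 and 35 CPM in the controls. Its level with SF3B1 knockout lay between those of PHF5A knockout and control (PHF5A over SF3B1 log2 fold change 2.35, SE 0.231, adjusted p = 0.00769 by edgeR). ENSGALG00000031604 (chromosome 6, 11350644 to 11421637, plus strand) had 76.8 and 103 CPM in the PHF5A libraries, against 20.2 and 18.4 CPM in the SF3B1 libraries, with 96.2 and 101 CPM in the DLC1 libraries and 27.7 and 41 CPM in the controls. Here SF3B1 knockout lay below control and PHF5A knockout above it. The lower genes were ENSGALG00000030994 and ENSGALG00000056015, described above as falling, with 8.58 and 13.3 CPM for ENSGALG00000030994, and 10.5 and 12 CPM for ENSGALG00000056015, in the SF3B1 libraries. In the DLC1 libraries ENSGALG00000030994 had 0.879 and 1.05 CPM and ENSGALG00000056015 had 3.01 and 3.74 CPM. All 4 of these calls against SF3B1 were lost with the W share as covariate (edgeR adjusted p 0.109 to 0.139). The log2 fold changes moved little, from 2.35 to 2.56 for ENSGALG00000007843 and from 2.22 to 2.04 for ENSGALG00000031604. They went from -3.48 to -3.54 for ENSGALG00000030994 and from -2.36 to -2.23 for ENSGALG00000056015. The W share differed between the 2 knockouts, so the 2 cannot be fully told apart. The calls of ENSGALG00000031604 and ENSGALG00000056015 were also lost without the guide 2 library of SF3B1 (log2 fold changes 2.16 and -2.26). Over the 1268 rising genes of the core the median log2 fold change was 1.41 in PHF5A, 1.01 in DLC1 and 1.06 in SF3B1 knockout, and over the 959 falling genes -1.2, -0.939 and -0.733. All 3 comparisons share the same controls and the genes were chosen on PHF5A, so these medians are given side by side only.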

How the data were processed

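RNA was measured in 8 libraries, made per the labels' protocols from approximately 50000 GFP+ cells per treatment, after DNase treatment for 30 min and selection for an RNA integrity number of at least 8.0 and a ribosomal ratio of at least 1.0, with the Illumina Stranded mRNA Prep kit. Raw read counts, with Ensembl ID, position, strand and length, were deposited for 30862 features. Per the submitters' processing notes the tools included STAR 2.7.11b, featureCounts 1.5.3 (Subread), Trimmomatic 0.39 and FastQC 0.12.1, and the build was GRCg6a. Strand setting and annotation release: not given in the sources used here. In 100% of features the length was end minus start plus 1. A table of 25635 RefSeq genes (GRCg7b) matched 0 IDs, so no gene name, sequence or list of named genes was used.

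Genes were kept by filterByExpr (15619) and fitted over all 8 libraries with edgeR 4.0.16 (R 4.3.3): library totals and trimmed-mean (TMM) factors from genes outside MT, Z and W, robust quasi-likelihood F-test, Benjamini-Hochberg adjustment over all genes tested, called at 0.05. Standard errors came from the fold change and F. CPM uses these scaled totals, and log2 ratios per library add 0.5 CPM. Guides were also fitted as separate terms, where a lone library is assumed to vary like the others. Consistent genes were called and had both guides on one side of both controls. The 4 genes named first were consistent, called for each guide alone, averaged at least 5 CPM in either group and had the largest smallest separation, 2 in each direction. The 4 genes for the guide difference were the first 2 in each direction by adjusted p at 5 CPM, with ties, which held all 4, ordered by unadjusted p. The members, groups of genes and tests were chosen with earlier results of these data known. Alternatives were other scalings, DESeq2 1.42.0, limma-voom (limma 3.58.1), other filters, covariates, libraries left out and, added after seeing the data, thinned reads and left-out DLC1 and SF3B1 libraries. Floors cover counting error only, as PCR copies cannot be told from separate molecules. With 2 libraries against 2, an exact permutation test cannot go below p = 0.333, so single values are described without one. The 2 libraries of each group differed by more than sampling noise (chi-square per degree of freedom 37.4 to 176).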

Additional observations from a re-analysis of the deposited data

Results flagged for a closer look

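The direct comparison of PHF5A with SF3B1 knockout was singled out because the effects of the knockouts differed by a test of the difference itself, at 180 genes (edgeR, adjusted p under 0.05). ENSGALG00000014976 was singled out for the same reason between PHF5A and DLC1 knockout, with a log2 fold change of -1.6. With 2 libraries per group no library could be tested as standing apart from its group.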

How the results depend on the processing

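Across 400 results recomputed under an alternative, 328 kept their direction and stayed on the same side of the threshold or within an allowed range. For differences between medians that range was the SD between the 2 guides (0.356 for span, 0.00997 for level, 0.289 for chromosome 25 against all genes). A left-out guide could thus hardly move span or chromosome 25 out of it. Of the 400, 184 were fold changes of named genes chosen by their values, with 168 of them among the 328. The 328 are therefore no measure of robustness. No gene called against control was called in the opposite direction under any alternative. Leaving out each library in turn gave 2276 to 4339 genes called against control, 1431 to 2264 rising and 845 to 2075 falling, with a rising share of 52.2% to 62.9%. Consistent genes numbered 2227 when each guide had to be called alone and 2734 at 2-fold or more. Library size alone gave 4282 rising and 1182 falling genes (78.4% rising). The span difference was 0.375 with no filter. The level difference was -0.469 with 4 libraries in the fit, -0.498 with no filter, -0.424 with a 5 CPM filter and -0.462 with thinned reads, and -0.522 to -0.461 with libraries left out. Guide 1 differed from guide 2 at 138 genes with no filter. Against DLC1 the count was 0 with library size alone, a 5 CPM filter or the W share as covariate, 2 with limma-voom, 278 with DESeq2, 462 with no filter and 0 to 61 with libraries left out. Against SF3B1 it was 677 with DESeq2, 980 with no filter, 0 with the W share as covariate and 3 to 162 with libraries left out. The cause was not tested. The labels do not say that replicate numbers pair samples, and deviations of same-numbered control and PHF5A libraries correlated at 0.234. With the number as a replicate block, 5862 genes were called against control (4824 of the 4863 among them), 9 against DLC1 and 568 against SF3B1. Differences below the floor of 3 counts were not detectable at this depth.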
